A study of Danio rerio with 20 samples.

Results

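The microRNAs dre-miR-99 and dre-miR-100 are the 2 members of the miR-99 and miR-100 family among the 219 mature microRNA probes of a zebrafish array. They were chosen by the probe names, with their lower values in both dystrophin mutants at 30 days post fertilization (dpf) already known. Mutant to wild type values of the members at 30 dpf are thus descriptions with no test, except where the 2 mutant lines are compared. Lists of tissue and family microRNAs were also chosen with earlier results of these data known, so their calls at 30 dpf are descriptions. Small RNA of whole zebrafish of the TL strain was hybridised to 2-colour arrays in 20 samples, each sample being 1 dye channel, Cy3 or Cy5. The 2 mutant lines, sapje and sapje-like, carry mutations in the gene for dystrophin, the protein that links the cytoskeleton of a muscle fibre to its membrane, and are used as models of Duchenne muscular dystrophy. The groups were sapje fish at 30 dpf against their wild type SW at 30 dpf, sapje-like fish at 30 dpf against their wild type SLW at 30 dpf (3 samples each), and the same 4 genotypes at 5 dpf (2 samples each). All groups had the same diet and strain, and RNA came from 10 fish per cohort. Whether the samples of a group were separate pools of fish is not given, so that p-values measure the spread between these samples, which may be technical. The labels name no alleles.

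A microRNA guides the silencing complex to messenger RNAs that pair with its seed, bases 2 to 8 counted from its 5′ end, and represses them. The miR-99 and miR-100 family is one of the most deeply conserved in animals, and its genes usually lie in clusters with genes of the let-7 and miR-125 families. In mammalian cells its known targets include the kinase mTOR and the receptor IGF1R, which drive growth, and in zebrafish the family has been studied for its fall during heart regeneration. In the RefSeq table of assembly GRCz12tu, 4 genes encode the 2 members, and each had 2 microRNA neighbours within 100 kb on either side. The neighbours of dre-mir-99-1 were mirlet7c-1 and mir125c, those of dre-mir-99-2 were mirlet7c-2 and mir125b-3, those of mir100-1 were mirlet7a-2 and mir125b-1, and those of mir100-2 were mirlet7a-4 and mir125b-2. Loci dre-mir-99-1 and mir100-1 also overlapped the annotated genes zgc:153372 and LOC101886227. The array has a single probe for each mature member and none for their star strands, so that the 2 loci of a member cannot be told apart.

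The target sequences below are those recorded for the spots, 5′ to 3′, with the seed in capitals. The first pair are the members, miR-10a is the microRNA on the array that shares the longest run with each of them, and the rest are the mature products named in the annotation beside the members' genes.
miR-99: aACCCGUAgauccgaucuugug
miR-100: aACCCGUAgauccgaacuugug
miR-10a: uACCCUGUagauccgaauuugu
let-7a: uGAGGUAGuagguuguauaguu
let-7c: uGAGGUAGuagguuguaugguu
miR-125b: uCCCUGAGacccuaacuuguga
miR-125c: uCCCUGAGacccuaacucguga
The members are 22 nucleotides long and are identical at 21 positions. They differ by U16A, with the base of miR-99 first, the position counted from the 5′ end, and the base of miR-100 last. That position lies outside the seed, and only these 2 of the targets on the array hold the seed ACCCGUA. The longest run shared with miR-10a was 10 nucleotides for miR-99 and 11 for miR-100. With 1 mismatch between the members, how much of either signal came from the other member was not tested, and their agreement below is not that of independent measurements.

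Both members were above background in all 20 samples, background being the median of the empty spots plus 3 robust standard deviations. The reading nearest to its background was that of miR-99 in sapje-like replicate 3 at 30 dpf, a Cy3 sample. Its mean spot intensity was 552 against a median empty spot of 349, or 5.66 robust standard deviations above it. The same sample had only 105 probes above background, as did SW replicate 2 at 5 dpf, the lower end of a range that reached 173 in the other samples. The coefficient of variation over the 12 spots of a member was 2.77 to 17.3%. The median empty spot was at 282 to 572 in Cy3 samples, against 32.3 to 47.2 in Cy5 samples, and the dye was a term in the main fit. In the whole-fish samples, 4 to 6 of 6 striated muscle microRNAs were above background in each sample of 30 dpf fish, as were 2 to 4 of 4 gut and liver microRNAs. Among wild types at 30 dpf, SLW replicate 8 stood apart: the mean of its 4 gut and liver microRNAs was 11.85 on the log2 scale, against 7.17 and 7.26 in SLW replicates 2 and 5. Differences of the members at 30 dpf, their age difference over genotypes and the gut and muscle counts are given with and without it. Other results include it, among them the fit with a gut and liver covariate, the age difference within SLW and the correlations.

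At 30 dpf, miR-99 had lower values in sapje fish than in their wild type. The values below are normalised intensities on the log2 scale, set to one distribution over samples by rank. miR-99 was at 8.75, 9.80 and 9.85 in sapje fish, against 10.34, 10.20 and 10.20 in SW fish. Every sapje sample lay below every SW sample, and sapje replicate 1 was the lowest of them. How common such a separation was among all probes is not given. The means were 9.47 ± 0.62 in sapje and 10.25 ± 0.08 in SW (SD, n = 3 each). The fitted difference was -0.77 ± 0.45 (SE), a 1.70-fold lower level, with a 95% interval of -1.73 to 0.20. Without sapje replicate 1 it was -0.43.

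In the other cohort miR-99 was lower again, with a wider spread. It was at 9.45, 9.13 and 8.32 in sapje-like fish, against 11.29, 10.76 and 9.34 in SLW fish. The groups overlapped because SLW replicate 8 lay below sapje-like replicate 1. The means were 8.97 ± 0.59 in sapje-like and 10.46 ± 1.01 in SLW (SD, n = 3 each), and the fitted difference was -1.48 ± 0.45 (SE), 2.79-fold lower, with a 95% interval of -2.45 to -0.51. Without SLW replicate 8 the difference was -2.03. The intervals given for miR-99 here and in the sapje cohort take no account of the choice of the members by these values. They describe the spread and do not serve as tests. In the authors' deposited intensities, whose scale and centring are unknown, miR-99 read 579, 438 and 286 in sapje-like, against 2258, 1385 and 527 in SLW, the same order of samples.

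miR-100 followed miR-99 in both cohorts at 30 dpf with smaller differences. It was at 10.53, 11.06 and 11.10 in sapje fish, against 11.34, 11.23 and 11.18 in SW fish. It was at 10.64, 10.45 and 9.96 in sapje-like fish, against 11.68, 11.60 and 10.81 in SLW fish. In each cohort no mutant sample reached a wild type sample of that cohort, and the share of all probes for which this held is not given. The means were 10.89 ± 0.32 in sapje and 11.25 ± 0.08 in SW, and 10.35 ± 0.35 in sapje-like and 11.36 ± 0.48 in SLW (SD, n = 3 each). The fitted difference was -0.35 ± 0.26 (SE) in the sapje cohort, with a 95% interval of -0.91 to 0.20, and -0.18 without sapje replicate 1. It was -1.01 ± 0.26 in the sapje-like cohort, 2.01-fold lower, with an interval of -1.56 to -0.45, and at -1.27 without SLW replicate 8. Neither interval takes account of the choice of the members by their 30 dpf values, so neither serves as a test. All values are relative to the other probes of a sample. A lower one can come from fewer cells that hold these microRNAs, less of them per cell or more RNA of other tissues. These cannot be told apart in RNA from whole fish.

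**Figure D1:**
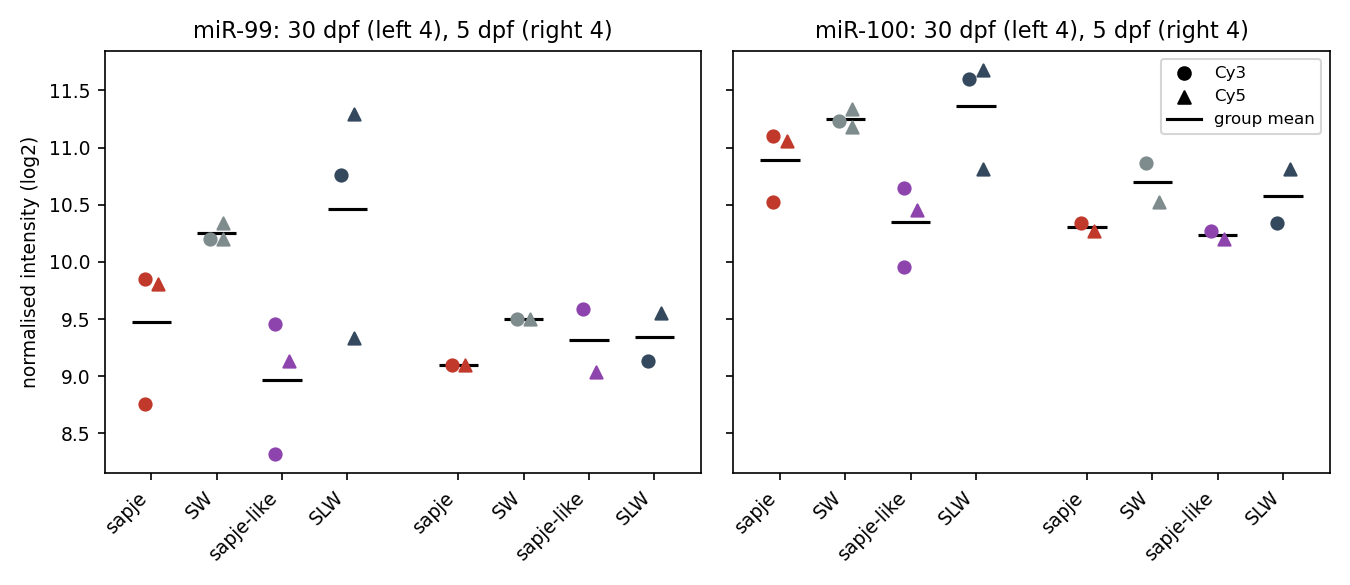
Normalised intensity (log2) of miR-99 (left) and miR-100 (right) in every sample, circles for Cy3, triangles for Cy5 and black lines for group means, with each mutant left of its wild type and 30 dpf left of 5 dpf. At 30 dpf the lowest wild type point of both members is SLW replicate 8 (9.34 for miR-99 and 10.81 for miR-100), and the lowest point of all is sapje-like replicate 3 (8.32 and 9.96).

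Taken over both cohorts at 30 dpf, the difference was -1.12 ± 0.32 (SE) for miR-99, 2.18-fold lower in mutants, and -0.68 ± 0.19 for miR-100, 1.60-fold lower. Without SLW replicate 8 these were -1.38 and -0.80. The median over the 167 probes tested was -0.06. Ordered from the most negative difference, miR-99 was number 4 of 167 and miR-100 number 16. These ranks belong to the contrast by which the members were proposed.

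The 20 samples fell into 10 arrays by the likeness of their spot patterns, and on each array 1 channel was a mutant and the other the wild type of the same cohort and age. Differences within an array compare samples that shared their spots, with no correction for dye. At 30 dpf the mutant was in Cy3 for replicates 1 and 3 of sapje and of sapje-like, and in Cy5 for replicate 2 of each. This pairing was inferred from the intensities and is not in the labels. Within arrays, miR-99 was lower in the mutant on 6 of 6 arrays at 30 dpf, with differences of -1.59, -0.40 and -0.35 for sapje against SW and of -1.84, -1.63 and -1.02 for sapje-like against SLW. miR-100 was also lower on 6 of 6, with differences of -0.81, -0.17 and -0.08 for sapje against SW and of -1.03, -1.14 and -0.85 for sapje-like against SLW. Both counts belong to the contrast by which the members were proposed, and the share of all probes with the same sign on every array is not given. The miR-99 difference minus the miR-100 difference was -0.80 to -0.17 on these 6 arrays, so that miR-99 was the further from its wild type on each. Among the sapje arrays that of replicate 1 had the largest difference for both members.

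At 30 dpf the gut and liver microRNAs had a positive median difference in mutants, opposite to the members, and the striated muscle microRNAs a negative one. The tissue lists were chosen with earlier results of these data known, so the calls below describe them and are no independent test. The 4 gut and liver microRNAs were miR-122, the main liver microRNA, with miR-192, miR-194a and miR-194b, known from intestinal and liver epithelium. Of these, 3 of 4 were higher in mutants over both cohorts at 30 dpf (limma, adjusted p under 0.05), against 5.39% of all tested probes, with a median difference of 3.55. Their mean log2 level was 11.91, 9.57 and 9.16 in sapje, against 7.39, 7.17 and 7.20 in SW, and 12.16, 11.85 and 11.59 in sapje-like, against 7.17, 7.26 and 11.85 in SLW. Their summed intensity ranged over 11.70 to 15.03 on the log2 scale in sapje, against 9.25 to 9.48 in SW, and over 14.74 to 15.33 in sapje-like, against 9.26 to 15.16 in SLW, and miR-194b was not above background in any SW sample. At 30 dpf the samples with the most of these microRNAs, sapje replicate 1, the 3 sapje-like samples and SLW replicate 8, were also those with the least miR-99 and miR-100. Of the 6 striated muscle microRNAs, which include miR-1, miR-133a and miR-206, 2 were lower in mutants, against 7.78% of all tested probes, and the median difference was -0.60. Without SLW replicate 8, an alternative for these lists that was added after seeing the data, 4 of 4 gut and liver microRNAs were higher and 4 of 6 striated muscle microRNAs lower. Calls rose over the whole array in that fit, to 42 of the 167 tested probes in either direction, from 22 with the sample. The mean level of the striated muscle microRNAs was 11.09, 11.80 and 11.84 in sapje, against 12.39, 12.16 and 12.33 in SW, and 11.42, 11.48 and 10.95 in sapje-like, against 12.63, 12.42 and 10.96 in SLW. Of the 5 pancreas microRNAs 0 were called (limma, 2 at an unadjusted p under 0.05), with a median difference of 0.06. Of the other tissue lists, the 1 blood microRNA tested was called lower, at -1.07, and 1 of 4 lens and sensory microRNAs higher. None was called in smooth muscle (2 probes, median 0.53), nervous system (6, -0.08), epithelium (7, -0.24), vessel (1, 0.01) or cartilage (1, -0.14). Over all tested probes 22 of 167 were called and 50 of 167 had an unadjusted p under 0.05.

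**Figure D2:**
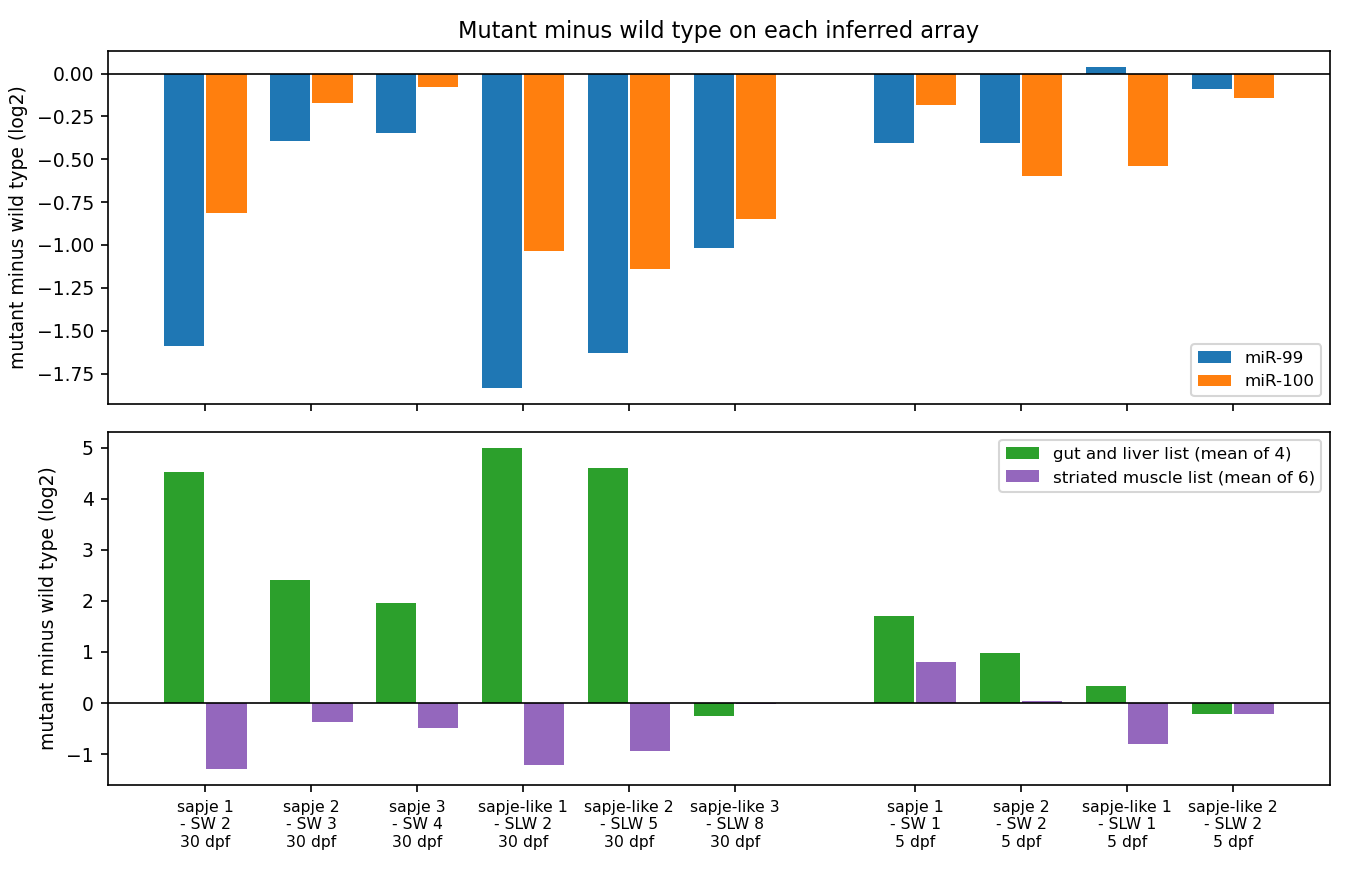
Mutant minus wild type (log2) on each inferred array, for miR-99 and miR-100 (top) and for 2 tissue lists, gut and liver and striated muscle, each as its mean (bottom), with 30 dpf arrays left and 5 dpf arrays right and the pair of samples under each. On the array of sapje-like replicate 3 and SLW replicate 8 the lists are at -0.26 and -0.01, miR-99 is at -1.02 and miR-100 at -0.85.

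The gut and liver mean was higher in the mutant on 5 of the 6 arrays at 30 dpf, by 1.95 to 4.99. On the sixth, sapje-like replicate 3 against SLW replicate 8, it differed by -0.26 and the striated muscle mean by -0.01. On that single array miR-99 differed by -1.02 and miR-100 by -0.85, and the mutant channel was the sample nearest to background. With the gut and liver mean as a covariate in the fit, the difference over both cohorts was -0.02 ± 0.31 (SE) for miR-99. For miR-100 it was -0.15 ± 0.21. The SEs without the covariate were 0.32 and 0.19. At 30 dpf the covariate was higher in every mutant sample than in every wild type sample but SLW replicate 8. It also varied among the sapje samples, at 11.91, 9.57 and 9.16. How much of the difference goes with the covariate and how much with the genotype was not tested.

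**Figure D3:**
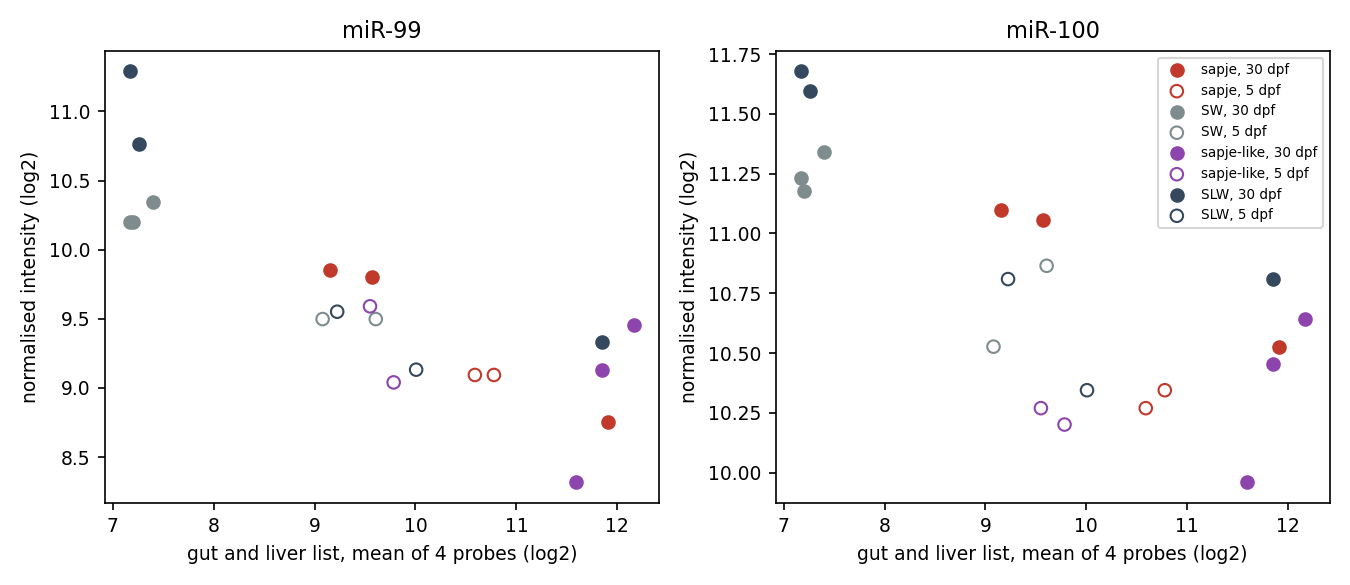
Normalised intensity (log2) of miR-99 (left) and miR-100 (right) against the mean of the 4 gut and liver microRNAs (log2) in each of the 20 samples, filled at 30 dpf and open at 5 dpf. The 5 wild type samples of 30 dpf at 7.17 to 7.39 on the horizontal axis hold the highest values of both members, and SLW replicate 8 lies at 11.85 among the mutants.

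At 5 dpf, in samples that played no part in the choice of the members, neither passed the test. miR-99 was at 9.09 and 9.09 in sapje fish, against 9.50 and 9.50 in SW fish, and at 9.59 and 9.04 in sapje-like fish, against 9.55 and 9.13 in SLW fish. The equal pairs come from the normalisation, which gives equal ranks equal values. The authors' deposited intensities for the same pairs were 521 and 425 in sapje, against 554 and 784 in SW. miR-100 was at 10.34 and 10.27 in sapje fish, against 10.53 and 10.86 in SW fish, and at 10.27 and 10.20 in sapje-like fish, against 10.81 and 10.34 in SLW fish. Both sapje samples were below both SW samples for each member, and the same held for miR-100 in sapje-like against SLW. The share of all probes separated in this way is not given, so these orders are descriptions.

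Over both cohorts at 5 dpf, the difference was -0.22 ± 0.38 (SE) for miR-99 (limma, adjusted p = 0.829, 95% interval -1.04 to 0.61) and -0.37 ± 0.22 for miR-100 (limma, adjusted p = 0.583, interval -0.84 to 0.11). In this comparison 1.2% of the 167 probes were called. In sapje alone it was -0.40 for miR-99 (limma, adjusted p = 0.797) and -0.39 for miR-100 (adjusted p = 0.633), with 1.8% of probes called. In sapje-like alone it was -0.03 for miR-99 (limma, adjusted p = 0.991) and -0.34 for miR-100 (adjusted p = 0.848), with 0.599% of probes called. Within arrays, miR-100 was lower in the mutant on 4 of 4, with differences of -0.18, -0.60, -0.54 and -0.14. How many of all probes kept their sign over these arrays is not given. The intervals at 5 dpf rest on 2 samples a group. For miR-100 the interval over both cohorts includes the 30 dpf difference of -0.68, and for miR-99 it ends at -1.04, short of the 30 dpf difference of -1.12. The 30 dpf interval for miR-99, -1.82 to -0.43, overlaps that at 5 dpf. These 30 dpf values belong to the contrast by which the members were proposed, and whether the mutant difference changed with age was not tested. Differences of smaller size lay within both 5 dpf intervals and were not detectable here.

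The sapje and sapje-like cohorts were compared directly. At 30 dpf the sapje-like difference minus the sapje difference was -0.72 ± 0.62 (SE) for miR-99 (limma, adjusted p = 0.857) and -0.65 ± 0.36 for miR-100 (adjusted p = 0.663), with 0% of probes called and 9 of 167 at an unadjusted p under 0.05. At 5 dpf it was 0.38 ± 0.77 for miR-99 and 0.05 ± 0.44 for miR-100 (limma, adjusted p = 0.996 each, 0.599% of probes called). The larger differences in sapje-like fish at 30 dpf were thus not separated from those in sapje fish by this test, and leaving out SLW replicate 8 gave -1.31 for miR-99 and -0.94 for miR-100, while the smallest values with a sample left out were -0.29 for miR-99, without SLW replicate 2, and -0.45 for miR-100, without sapje-like replicate 3. The level of the sapje-like cohort minus that of the sapje cohort, mutants and wild types together, was -0.14 for miR-99 and -0.21 for miR-100 at 30 dpf (limma, adjusted p = 0.943 and 0.776, 1.2% of probes called), and without SLW replicate 8 it was 0.15 for miR-99 and -0.0708 for miR-100. At 5 dpf it was 0.03 for miR-99 and -0.10 for miR-100 (limma, adjusted p = 0.982 and 0.940, 4.19% of probes called).

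Between the ages, miR-100 was higher in the older fish. Over the 4 genotypes weighted equally, it averaged 10.96 at 30 dpf and 10.45 at 5 dpf, a difference of 0.51 ± 0.14 (SE), or 1.42-fold (limma, adjusted p = 0.00591, 95% interval 0.21 to 0.82). miR-99 averaged 9.79 at 30 dpf and 9.31 at 5 dpf, and its difference of 0.47 ± 0.25, or 1.39-fold, did not pass (limma, adjusted p = 0.109, interval -0.06 to 1.01). Age moved most of the array, with 30.5% of probes called higher and 29.9% called lower at 30 dpf, so a call here is common among the probes. Without SLW replicate 8 the value for miR-99 was 0.62 and passed (limma, adjusted p = 0.00849), and that for miR-100 was 0.58. The call for miR-100 was lost when samples were scaled by their medians, at 0.06 (limma, adjusted p = 0.778), where the median of all probes itself was at -0.33, when quantiles were set within each age, at 0.24 (adjusted p = 0.152), and under cyclic loess, at 0.26 (adjusted p = 0.180). It was also lost with fewer samples, within Cy3 at 0.53 (adjusted p = 0.170) and within Cy5 at 0.55 (adjusted p = 0.169).

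Within each genotype the age difference is given as a description, since it uses the same 30 dpf samples. For miR-100 the 30 dpf fish exceeded the 5 dpf fish by 0.59 in sapje, 0.55 in SW, 0.12 in sapje-like and 0.78 in SLW. For miR-99 the 30 dpf fish differed from the 5 dpf fish by 0.38 in sapje, 0.74 in SW, -0.34 in sapje-like and 1.11 in SLW. For miR-99 each wild type had a larger value than its mutant, while for miR-100 this held in the sapje-like cohort but not in the sapje cohort. Such an order restates in part the 30 dpf difference by which the members were proposed. Only sapje-like fish had a lower fitted miR-99 level in the older fish, at -0.34 ± 0.50 (SE), and that SE exceeds the size of the difference.

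Over all 8 groups miR-99 was highest in SLW at 30 dpf (10.46), followed by SW at 30 dpf (10.25), SW at 5 dpf (9.50), sapje at 30 dpf (9.47), SLW at 5 dpf (9.34), sapje-like at 5 dpf (9.32), sapje at 5 dpf (9.09) and sapje-like at 30 dpf (8.97). Of these neighbours, only SW at 30 dpf and SW at 5 dpf had samples that did not overlap. miR-100 was highest in SLW at 30 dpf (11.36), followed by SW at 30 dpf (11.25), sapje at 30 dpf (10.89), SW at 5 dpf (10.70), SLW at 5 dpf (10.58), sapje-like at 30 dpf (10.35), sapje at 5 dpf (10.31) and sapje-like at 5 dpf (10.24). Only SW and sapje at 30 dpf, among these neighbours, did not overlap. In both orders the wild types of 30 dpf came first. The order of mutants and wild types at 30 dpf belongs in part to the contrast by which the members were proposed. How common such gaps and orders were among all probes is not given.

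The microRNAs encoded beside the members were compared in the same way. For miR-125, a family known for roles in cell differentiation, 0 of 3 were called between mutants and wild types at 30 dpf, with a median difference of -0.17, and the let-7 family, which is known to promote differentiation late in development, had 0 of 10 called with a median of -0.15. At 5 dpf over both cohorts 0 of 3 and 0 of 10 were called, with medians of -0.54 and -0.17. At an unadjusted p under 0.05 in limma, 0 of 3 and 1 of 10 passed at 30 dpf, and 1 of 3 and 0 of 10 at 5 dpf. Over all 167 tested probes 50 passed that threshold at 30 dpf and 16 at 5 dpf, while 22 and 2 were called. Among the products named beside the members' genes, the 30 dpf difference was -0.22 ± 0.28 (SE) for let-7a, -0.28 ± 0.34 for let-7c, -0.21 ± 0.24 for miR-125b and -0.12 ± 0.21 for miR-125c. These means join cohorts that differed in sign for let-7a and let-7c with SLW replicate 8 included. In sapje against SW the difference was -0.77 ± 0.39 for let-7a and -1.02 ± 0.48 for let-7c, beside -0.77 for miR-99 and -0.35 for miR-100. In sapje-like against SLW it was 0.34 ± 0.39 for let-7a and 0.45 ± 0.48 for let-7c, beside -1.48 for miR-99 and -1.01 for miR-100. There let-7c was at 10.00, 10.07 and 10.61 in sapje-like fish, against 10.45, 10.27 and 8.54 in SLW replicates 2, 5 and 8. In the same order let-7a was at 10.76, 11.34 and 12.30, against 11.43, 11.39 and 10.61. SLW replicate 8 was thus the lowest SLW sample for both, and their differences without it are not given. For miR-125b the difference was -0.11 in sapje and -0.32 in sapje-like, and for miR-125c -0.14 in sapje and -0.11 in sapje-like. Differences between these microRNAs and the members were not tested.

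The same families were also compared between the ages. All 10 let-7 probes were higher at 30 dpf, with a median of 1.54, against the 30.5% of all probes that were called higher. let-7a averaged 11.29 at 30 dpf and 8.15 at 5 dpf, a difference of 3.14 ± 0.22 (SE; limma, adjusted p = 1.96e-08), and let-7c differed by 2.41 ± 0.26 (adjusted p = 1.89e-06). Of the 10, let-7h and let-7j were not above background in any 5 dpf sample, so that no size is given for their differences. At 5 dpf let-7e was above it only in SLW replicate 1 and sapje-like replicate 1. let-7e, let-7h and let-7j thus entered the tests only through 30 dpf groups, where they are high, and their calls are descriptions. In sapje and SW at 5 dpf let-7f and let-7g were also never above background, nor was let-7i in SW and SLW. The median of 1.54 therefore rests in part on values at background. Of the miR-125 family 2 of 3 were higher at 30 dpf, miR-125b by 0.93 ± 0.18 (SE; limma, adjusted p = 0.000418) and miR-125c by 0.78 ± 0.16 (adjusted p = 0.000774), while miR-125a was at 0.17 ± 0.20 (adjusted p = 0.475). Scaling by medians left 0 of 3 called.

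The miR-10 family, whose genes lie within the Hox clusters that pattern the body axis, carries the seed ACCCUGU. Its probes for miR-10a and miR-10c share a run of 9 to 11 bases with the members. All 4 of its probes were lower at 30 dpf, with a median of -2.85, against 29.9% of all probes called lower, and miR-10a differed by -3.27 ± 0.18 (SE; limma, adjusted p = 2.84e-09). The probe with the longest shared run thus had an age difference opposite in sign to that of miR-100. Between mutants and wild types 0 of 4 were called at 30 dpf, with a median of 0.31, and 0 of 4 at 5 dpf, with a median of -0.30, also at an unadjusted p under 0.05 in limma. Over all 167 tested probes 22 were called at 30 dpf and 2 at 5 dpf, with 50 and 16 at an unadjusted p under 0.05.

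**Figure D4:**
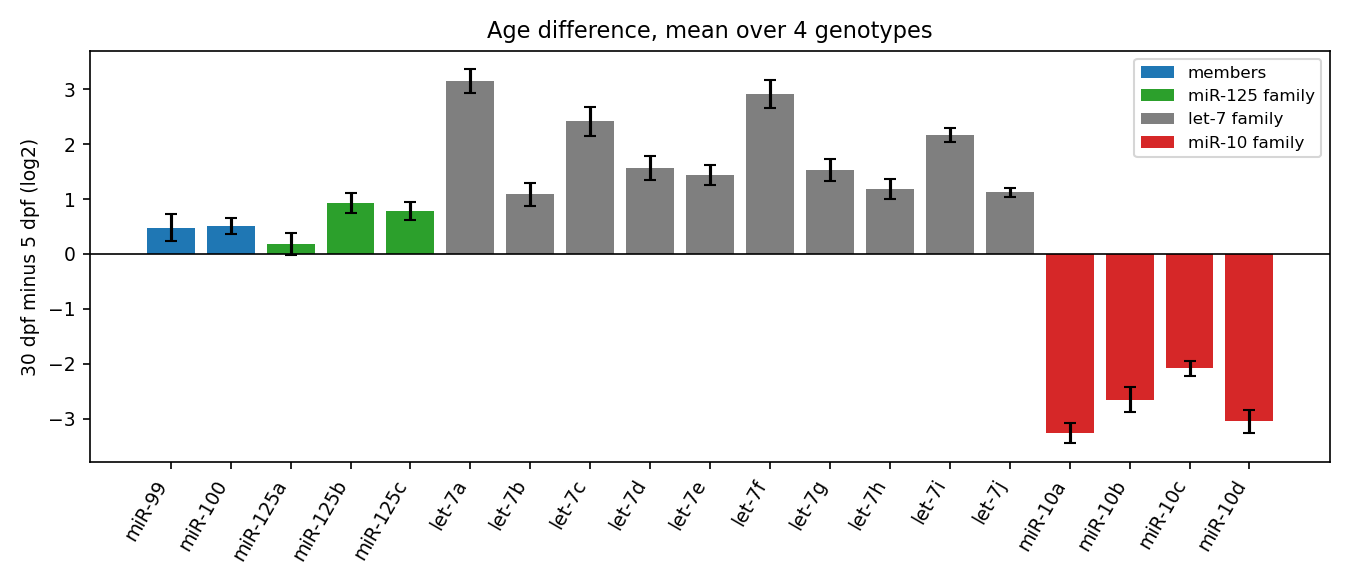
Difference in normalised intensity (log2, 30 dpf minus 5 dpf, mean over 4 genotypes) of miR-99 and miR-100 and of the miR-125, let-7 and miR-10 families, with bars for the fitted value and whiskers for its standard error. The members at 0.47 and 0.51 lie below the let-7 probes, of which let-7a reaches 3.14, and the 4 miR-10 probes lie below 0; for let-7h and let-7j the 5 dpf level is not above background.

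The pattern over the 20 samples most like that of each member was that of the other, with a Pearson correlation of 0.93. After miR-100, the microRNAs nearest to miR-99 were miR-140 (0.84), miR-338 (0.84), miR-199 (0.81) and miR-133a* (0.80), of which miR-140 was not above background in 6 of the 8 groups. After miR-99, those nearest to miR-100 were miR-199 (0.90), miR-133a* (0.86), miR-148 (0.80) and miR-338 (0.79). The most opposite patterns to miR-99 were those of miR-192 (-0.86), miR-217 (-0.84), known from the pancreas, and miR-194a (-0.82), and the same 3 were the most opposite to miR-100 at -0.80, -0.81 and -0.77. These samples share 8 groups and 10 arrays, and the values are descriptions.

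The members also varied together between samples of 1 group. Over the 20 deviations from the fit of group and dye, miR-99 and miR-100 correlated at 0.93. For miR-99 the next were miR-199 (0.85), miR-133a* (0.83), miR-133a (0.83) and miR-133b (0.82), and for miR-100 miR-199 (0.89), miR-133b (0.88), miR-133a (0.85) and miR-133a* (0.83). Those of the miR-133 family are known from skeletal and heart muscle. The microRNAs encoded beside the members lay further off. miR-99 correlated at 0.55 with let-7c, 0.44 with miR-125b and 0.34 with miR-125c, numbers 22, 31 and 43 among the tested probes. miR-100 correlated at 0.33 with miR-125b and 0.16 with let-7a, numbers 45 and 75. The largest deviation of miR-99 was -1.14 in SLW replicate 8 and that of miR-100 was -0.55 in the same sample.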

How the data were processed

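Per the file headers, the scanner files hold mean spot intensity in 1 channel with no background removed; the labels' protocol describes extraction with the miRVana kit, poly(A) tailing, tag ligation and Cy3 or Cy5 staining by a service provider (LC Sciences). The deposited value table holds the authors' processed intensity per probe, with correction, scaling and centring unknown; column medians were 95.3 to 144, its log2 values correlated at 0.964 to 0.981 with those computed here, and it served as an alternative.

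Scanner values were background-corrected by normexp (offset 50, all spots), taken to log2, averaged over 12 spots and quantile-normalised over 219 mature probes. A probe entered the tests if 2 or more samples of some group lay above background, which kept 167 and omitted 52. Fits used limma 3.58.1 in R 4.3.3 (8 groups and dye, 20 samples, 11 residual and 2.48 prior degrees of freedom), with two-sided p-values adjusted by Benjamini and Hochberg over all tested probes and a threshold of 0.05. The number of arrays limits precision.

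Members, tissue and family lists were chosen with earlier results of these data known. Named microRNAs were the members, the listed families and tissue markers, and the probes most and least like each member. Arrays were inferred by correlating residuals of 708 spots (59 bright probes): the best partner was mutual for each of the 20 samples (r 0.449 to 0.846). The highest second-best r of a sample was 0.559, above the lowest of these. Alternatives covered background correction, scaling, filters, dye, blocks, a gut and liver covariate and each sample left out. Figures used matplotlib 3.10.9 in Python 3.11.15.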

Additional observations from a re-analysis of the deposited data

How the results depend on the processing

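Leaving aside the gut and liver covariate, the 30 dpf differences over both cohorts stayed negative in all 36 alternatives, at -1.39 to -0.77 for miR-99 and -0.86 to -0.50 for miR-100. The cause of each change below was not tested. With that covariate the differences were -0.0245 and -0.15 over both cohorts, 0.31 and 0.17 in sapje and -0.35 and -0.46 in sapje-like, for miR-99 and miR-100 in that order; it also gave, for miR-99, 0.0351 over both cohorts and 0.0781 in sapje at 5 dpf, -0.0860 for the cohort difference of the mutant effect and -0.10 for the cohort at 5 dpf, and 0.42 for the cohort at 30 dpf, and for miR-100 -0.18 for the cohort difference at 5 dpf and 0.0614 for the cohort at 30 dpf. The age call for miR-100 was lost with quantiles within each age (0.24), cyclic loess (0.26), median scaling (0.0602) and, with fewer samples, within Cy3 (0.53) or Cy5 (0.55). The other changes of sign were in values with no call. Median scaling gave 0.00689 for miR-99 and 0.0541 for miR-100 over both cohorts at 5 dpf, 0.0195 and 0.14 in sapje, -0.0252 and -0.17 for the cohort difference, and 0.21 for the cohort in miR-100, which was 0.17 under cyclic loess and 0.0163 in the authors' table. The median over spots gave 0.00509 for miR-99 in sapje-like at 5 dpf, and Cy3 alone 0.0269 over both cohorts at 5 dpf.

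With each sample left out, the 30 dpf difference over both cohorts ran from -1.38 to -0.94 for miR-99 and -0.80 to -0.59 for miR-100, and that for miR-99 at 5 dpf in sapje-like from -0.36 to 0.30. The cohort difference of the mutant effect at 5 dpf ran from -0.21 to 0.30 for miR-100. The cohort at 5 dpf ran from -0.13 to 0.20 for miR-99 and -0.22 to 0.0325 for miR-100, and the cohort at 30 dpf from -0.36 to 0.15 for miR-99. The age difference ran from 0.37 to 0.62 for miR-99, called only without SLW replicate 8, and from 0.45 to 0.58 for miR-100, called each time. At 5 dpf mutants and wild types with the same replicate number shared an inferred array, and their deviations correlated at 0.209 and 0.115. At 30 dpf same-numbered samples were on different inferred arrays, and correlated at -0.440 and -0.0458 in sapje against SW. Samples that shared an array at 30 dpf themselves correlated at only -0.231 to 0.341, so these correlations cannot decide which samples were paired. A replicate block left the age difference at 0.49 for miR-100 (limma, adjusted p = 0.0150) and 0.43 for miR-99 (adjusted p = 0.193), and changed no call for the members. Probes called at 30 dpf over both cohorts were 22, against 34 with the replicate block, 8 with each age alone, 1 with the covariate, 1 and 0 within Cy3 and Cy5, and 12 to 42 with a sample left out, the most without SLW replicate 8. Age called 101 probes, against 64 and 63 within Cy3 and Cy5. At 5 dpf 2 were called, against 0 to 5 in the alternatives.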
